A study of Mus musculus with 4 samples.

Results

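R-spondins, LGR receptors and LRP co-receptors set how strongly a cell answers a given amount of WNT ligand. R-spondins are secreted proteins that bind the receptors LGR4, LGR5 and LGR6, and with them take the transmembrane ubiquitin ligases ZNRF3 and RNF43 off the cell surface. These ligases otherwise remove Frizzled receptors and LRP6, so their clearance leaves more WNT receptors in place. LRP5 and LRP6 are the co-receptors that, together with Frizzled, bind canonical WNT ligands and recruit AXIN, which stabilises beta-catenin. The 9 genes of this group are the ligands Rspo1, Rspo2, Rspo3 and Rspo4, the receptors Lgr4, Lgr5 and Lgr6, and the co-receptors Lrp5 and Lrp6. They were chosen by name, as all probes whose gene name on the array equals one of the 9, which gave 12 probes among 39429 and 9 genes among 29924 gene names.

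Expression was measured in ureters of wildtype NMRI mouse embryos of undetermined sex, dissected at E12.5 (E, embryonic day) and kept as explants for 18 h. Treated explants received 10 µM IWP-2, which blocks the acyltransferase Porcupine and thereby the secretion of WNT ligands, and control explants the solvent DMSO at 2 parts in 1000. There were 4 two-colour arrays, each with pooled treated and pooled control ureters on the same glass. Treated RNA carried the red dye on arrays 1 and 3 and the green dye on arrays 2 and 4. The E12.5 ureter is a tube of epithelium in a mesenchymal coat, dissected clear of kidney and bladder, and its RNA was measured whole, so that fewer cells of a type and less RNA per cell cannot be told apart.

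The probes were 60 bases long, and each was printed in 4 spots per array. For the 5 genes that changed, the first 30 bases of each probe are given in the sense of the mRNA, because each value below rests on that single stretch of transcript. A second Lgr5 probe is shown because it gave no signal. No base is set apart in capitals.
Rspo1: ccgtggtacacgtcacggatgacctgactt
Rspo2: ccttaggtcagtttgtccttagattatgaa
Rspo3: ggatactactttctaacaaggtgtatctag
Lgr4: gctctgacatttccaaatttgttgaagtta
Lgr5: catgtaaatacgtagtgcttgtaaatagat
Lgr5, second probe: acctctagtgcttatatagaaacttgtgtg
In the mouse build mm9 the whole probes lie at chr4:124686270-124686329 on the plus strand for Rspo1, chr15:42852727-42852786 on the minus strand for Rspo2, chr10:29172930-29172989 on the minus strand for Rspo3 and chr2:109853567-109853626 on the plus strand for Lgr4. The Lgr5 probes lie at chr10:114887403-114887462 and chr10:114900686-114900745, both on the minus strand. Whether a probe falls in coding sequence or in a UTR was not analysed here.

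The ligands and their receptors moved in opposite directions. Rspo1, Rspo2 and Rspo3 were higher in IWP-2-treated ureters, Lgr4 and Lgr5 were lower, and neither Lrp5 nor Lrp6 passed the test. Rspo4 and Lgr6 were not well above background. Of the 9 genes 7 could be tested, and limma with Benjamini-Hochberg adjustment called 2 of them lower and 3 higher. The same fit called 15.0% of all 22455 genes tested lower and 18.1% higher, so that changed genes were common on these arrays and their median size of change was 0.25 on the log2 scale. The log2 ratios below are treated over control on the same array after loess normalisation. Processed signals are the scanner software's background-subtracted, dye-normalised intensities. For 1 probe they are comparable between the 2 channels of an array, and they are not comparable between probes. They were not scaled between arrays here, so a spread or an overlap of groups across arrays also holds differences in level between arrays.

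**Figure D1:**
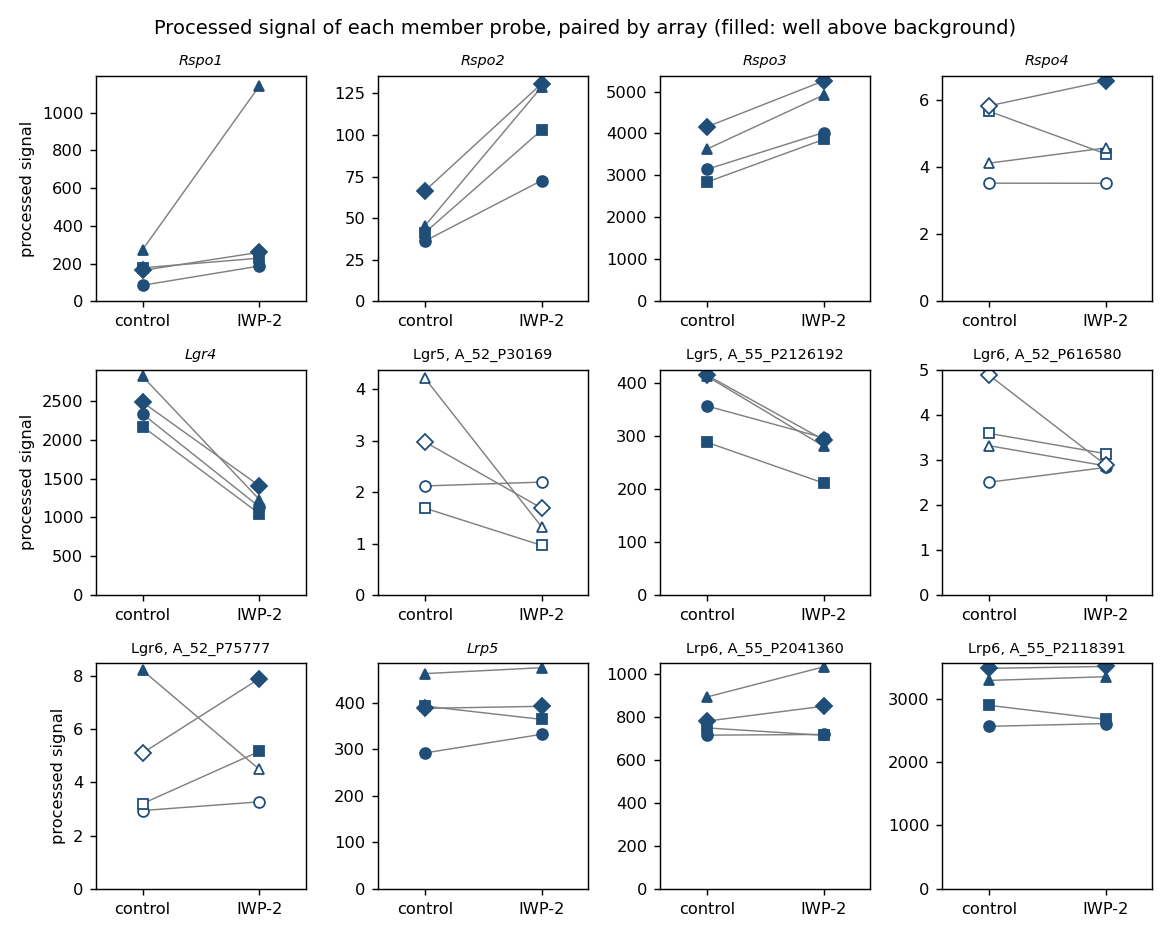
Processed signal (vertical axis, linear from 0, its own scale for each probe) of the 12 probes in control and IWP-2-treated ureters, with a line joining the 2 channels of each array. Circles, squares, triangles and diamonds are arrays 1 to 4, and filled symbols are channels in which the probe was well above background. All 4 lines fall for Lgr4 and rise for Rspo2 and Rspo3, while the Rspo1 signal of array 3 climbs from 275 to 1143.

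Among the ligands, Rspo3, which also acts in vessel growth and kidney development, had the steadiest change. Its processed signal was 3145, 2841, 3627 and 4158 in the controls of arrays 1 to 4 and 4022, 3858, 4918 and 5254 in the treated ureters. The treated channel was brighter on every array, although the 2 groups overlapped across arrays. The log2 ratios were 0.33, 0.46, 0.41 and 0.35, with a mean of 0.39 ± 0.06 (SD, n = 4; limma adjusted p = 0.00129; 95% confidence interval 0.29 to 0.49), a rise of 1.31-fold. Of all genes tested, 83.5% varied more between arrays.

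Rspo2, which is required for limb and lung development, rose more. Its signal was 36.2, 41.1, 45.2 and 66.3 in the controls and 72.6, 103, 129 and 131 in the treated ureters. The lowest treated value was above the highest control value, so the groups did not overlap. The log2 ratios were 0.68, 1.03, 1.13 and 0.78 and averaged 0.91 ± 0.21 (SD, n = 4; limma adjusted p = 0.000646; 95% confidence interval 0.71 to 1.10), or 1.88-fold. This probe was dim, with raw control intensities of 141 to 383 over local backgrounds of 26.2 to 68.4, and the offset of 50 added before taking logs shrinks the ratio of dim probes. The processed signals without that offset gave 1.22 ± 0.25 on the log2 scale. Rspo2 rose by 0.52 ± 0.16 (SD, n = 4) more than Rspo3 on the same arrays, with 0.35 to 0.72 on the single arrays, a difference of log2 ratios given without a test.

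Rspo1, known for its part in ovary determination and as a growth factor for intestinal epithelium, had the widest spread of the 7 genes tested. Its signal was 85.1, 178, 275 and 164 in the controls and 187, 229, 1143 and 260 in the treated ureters. It was higher on all 4 arrays, by log2 ratios of 0.99, 0.33, 1.96 and 0.59, but the groups overlapped, and the controls alone had a coefficient of variation of 44.3%. The mean was 0.96 ± 0.71 (SD, n = 4; limma adjusted p = 0.00412; 95% confidence interval 0.62 to 1.31), and only 0.160% of all genes tested had a larger SD. The interval comes from the fit with a dye term, and the ratios of arrays 2, 3 and 4 lay outside it. Without array 3 the mean was 0.72 (limma adjusted p = 0.00144). The call was lost when the 8 channels were fitted as separate samples (limma adjusted p = 0.181) and with the authors' table of fold changes (limma adjusted p = 0.0904).

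The spread of Rspo1 lay between arrays and not between spots. On array 3 the 4 spots gave log2 ratios of 1.93 to 2.00, and treated signals of 1125 to 1155. On array 2 they gave 0.28 to 0.38. The 2 arrays with treated RNA in red averaged 1.47 and the 2 with treated RNA in green 0.46. The dye term of the fit was 0.51 for Rspo1 (limma adjusted p = 0.174), and no gene tested had a dye term past the adjusted threshold. In a fit without a dye term the change of Rspo1 had a limma adjusted p of 0.0222. Array, pool and dye cannot be told apart for the value of array 3.

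**Figure D2:**
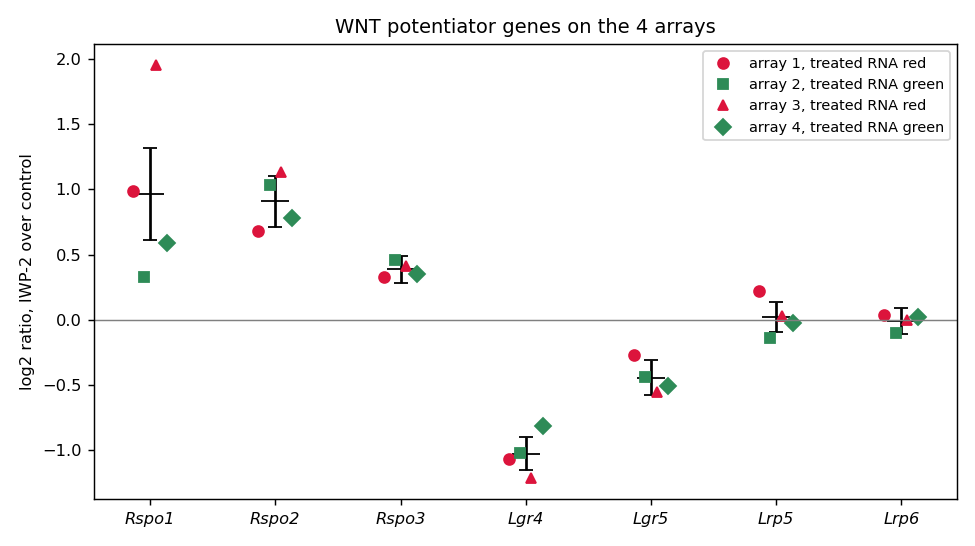
Log2 ratio of IWP-2 over control (vertical axis) for the 7 genes tested, 1 symbol per array, red where treated RNA carried the red dye and green where it carried the green dye. Dashes and bars are the mean of 4 arrays and its 95% confidence interval from the limma fit with a dye term. Lgr4 and Lgr5 lie below 0 on all 4 arrays and the 3 R-spondins above it, and the points of Rspo1 spread from 0.33 to 1.96.

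Rspo4, a ligand needed for nail formation, was read at chr2:151700345-151700404 on the plus strand. Its probe was well above background in no control channel and in 1 of 4 treated channels, the green one of array 4. The signal was 3.52, 5.66, 4.12 and 5.82 in the controls and 3.52, 4.39, 4.57 and 6.56 in the treated ureters, which overlap. No fold change is given, since neither group was measured above background.

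Lgr4, the LGR receptor with the broadest known expression in embryonic organs, was lower on all 4 arrays. Its signal was 2333, 2171, 2816 and 2484 in the controls and 1136, 1048, 1230 and 1407 in the treated ureters. Every treated value was below every control value. The log2 ratios were -1.06, -1.02, -1.21 and -0.81, with a mean of -1.03 ± 0.17 (SD, n = 4; limma adjusted p = 7.23e-05; 95% confidence interval -1.15 to -0.90), which leaves 49.1% of the control level. Of the 22455 genes tested, 156 fell further.

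The decrease of Lgr4 was close to the fold change of 2 that the study's methods set as a limit, together with an intensity over 100. In processed signals Lgr4 was 2.05-fold, 2.07-fold, 2.29-fold and 1.77-fold lower on arrays 1 to 4, so that it passed the limit on 3 arrays and missed it on array 4. The limits were stated for 2 arrays per stage, and which of the 4 arrays these were is not given in the sources used here. Lgr4 passed on arrays 1 and 2 taken alone and not on arrays 3 and 4 taken alone. None of the 9 genes passed on all 4 arrays, and Lgr4 did so with a limit of 1.5.

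The genes whose 4 ratios lay nearest to those of Lgr4, among 17846 other named genes, were Cadps2, Shisa2 and F730043M19Rik. Cadps2, which encodes a protein of dense-core vesicle release, had a mean log2 ratio of -1.02 ± 0.09 (SD, n = 4) and a root mean square difference from Lgr4 of 0.085 over the 4 arrays. For Shisa2, which encodes a protein that holds Frizzled and FGF receptors in the endoplasmic reticulum, the values were -0.98 ± 0.13 and 0.094. For F730043M19Rik, an RNA without a gene symbol of its own, they were -1.03 ± 0.06 and 0.100.

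Lgr5, a marker of epithelial stem cells and itself a known beta-catenin target, fell less than Lgr4. Its signal was 356, 288, 413 and 415 in the controls and 296, 211, 281 and 293 in the treated ureters, lower on every array, with the treated values of arrays 1 and 4 above the lowest control value. The log2 ratios were -0.27, -0.44, -0.55 and -0.51, with a mean of -0.44 ± 0.12 (SD, n = 4; limma adjusted p = 0.00223; 95% confidence interval -0.57 to -0.31). The call was lost with the authors' table of fold changes (limma adjusted p = 0.0684). The drop of Lgr4 exceeded that of Lgr5 on all 4 arrays, by log2 ratios that differed by -0.58 ± 0.21 (SD, n = 4; -0.79 to -0.30), a description without a test. The second Lgr5 probe was well above background in none of the 8 channels, with signals of 0.97 to 4.22, and gives no level.

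Lgr6, the LGR receptor best known from hair follicles, had 2 probes on the minus strand, at chr1:136883782-136883841 and chr1:136880538-136880597. The first was well above background in no channel, with signals of 2.51 to 4.88. The second was above it in 1 control and 2 treated channels, with signals of 2.94 to 8.21 in the controls and 3.27 to 7.90 in the treated ureters. These 3 channels were all read in green. No fold change is given for Lgr6.

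Lrp5 and Lrp6 were well measured and their ratios lay near 0. The Lrp5 probe, at chr19:3584971-3585030 on the minus strand, had signals of 292, 393, 462 and 388 in the controls and 332, 364, 475 and 392 in the treated ureters. These groups overlapped throughout. The log2 ratios were 0.22, -0.14, 0.03 and -0.02, and the mean was 0.02 ± 0.15 (SD, n = 4; limma adjusted p = 0.766). Its 95% confidence interval was -0.10 to 0.14, or a change of -6.42% to 10.1%.

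Lrp6 had 2 probes above background in all 8 channels, at chr6:134400440-134400499 and chr6:134404723-134404782 on the minus strand. The brighter one, used for the test, had signals of 2562, 2893, 3285 and 3475 in the controls and 2605, 2672, 3344 and 3506 in the treated ureters. The 2 channels of an array were nearly level on each of the 4 arrays, with log2 ratios of 0.04, -0.10, 0.00 and 0.02. The mean was -0.01 ± 0.06 (SD, n = 4; limma adjusted p = 0.879; 95% confidence interval -0.11 to 0.09), which bounds a change at -7.28% to 6.41%. The other probe had a mean log2 ratio of 0.06 ± 0.11 (SD, n = 4; limma adjusted p = 0.451 over all probes). The sign of Lrp5 and of Lrp6 turned under some alternatives without either passing the test.

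Of 7 genes in a list of partners around R-spondins and LGR receptors, 1 was lower, 1 was higher and 5 did not pass the test. The list ran from the ligases and cell surface proteoglycans to the Dishevelled adaptors of Frizzled. Its median log2 ratio was -0.05, against 0.00 over all genes tested. Of all genes tested, 15.0% were lower and 18.1% higher, the shares to set beside the counts of this list and the lists below. The ligase genes Znrf3 (-0.12 ± 0.16, limma adjusted p = 0.0855) and Rnf43 (0.05 ± 0.15, limma adjusted p = 0.564) did not pass, and the sign of Rnf43 turned without array 2 (-0.03). The Znrf3 probe was dim, and processed signals without the offset gave -0.28 (limma adjusted p = 0.0792). Gpc3, a heparan sulphate proteoglycan of the cell surface, was lower by -0.43 ± 0.11 (SD, n = 4; limma adjusted p = 0.000665). Dvl1, a cytoplasmic adaptor that carries the signal from Frizzled, was higher by 0.15 ± 0.10 (SD, n = 4; limma adjusted p = 0.0369).

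Among inhibitors of LRP5 and LRP6 the largest changes were falls. Of 12 genes 10 could be tested, 4 were lower and 2 higher, with a median log2 ratio of -0.12. Apcdd1, a membrane inhibitor of WNT receptors, was lower by -1.72 ± 0.16 (SD, n = 4; limma adjusted p = 8.22e-06). Dkk2, a secreted ligand of LRP6, was lower by -1.50 ± 0.11 and Sostdc1, a secreted LRP and BMP antagonist, by -0.60 ± 0.37 (-0.38 without array 4). Dkk1 was lower by -0.13 ± 0.09 (SD, n = 4; limma adjusted p = 0.0446). Kremen2, the co-receptor with which Dickkopf proteins remove LRP6, was higher by 0.38 ± 0.07 (0.60 with processed signals) and Lrp4, a receptor for sclerostin, by 0.23 ± 0.26, with -0.14 on array 3. Dkk4 and Sost were not well above background, and the LRP chaperone Mesdc2 (-0.05 ± 0.02) did not pass.

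In the cytoplasmic complex that forms on LRP6, 1 of 13 genes was lower and 2 were higher, with a median log2 ratio of 0.02. Over all genes tested, 15.0% were lower and 18.1% higher. The lower gene of the LRP6 complex was Axin2 (-1.56 ± 0.09), a scaffold of the destruction complex that is itself induced by beta-catenin. Axin2 stood at -1.07 with the mean of its probes. Csnk1g2, a kinase of the LRP6 tail, was higher by 0.24 ± 0.10 (SD, n = 4; limma adjusted p = 0.0128), as was Caprin2, by 0.24 ± 0.10 (SD, n = 4; limma adjusted p = 0.00538). All 6 genes of the beta-catenin response list (Axin2, Sp5, Nkd1, Lef1, Tcf7 and Notum) were lower, with a median of -1.52 and a range of -2.72 to -0.72. Lgr4 lay within that range and Lgr5 (-0.44) outside it. Genes of other lists, such as Vldlr and Fzd9, lay within it too.

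Among other LRP and related receptor genes most changes were rises. Of 11 genes 10 could be tested, 6 were higher and 1 lower, with a median log2 ratio of 0.20. Vldlr, a receptor for reelin and lipoproteins, was lower by -1.12 ± 0.05 (SD, n = 4; limma adjusted p = 2.41e-05). Lrp8 was higher by 0.32 ± 0.11 and Lrp2, the endocytic receptor megalin, by 0.28 ± 0.18 (0.15 with the mean of its probes). The others that were higher, Lrp10, Sorl1, Lrp11 and Lrp1, rose by 0.19 to 0.27. With the authors' table of fold changes Lrp8 (limma adjusted p = 0.0684) and Lrp2 (limma adjusted p = 0.0879) lost their calls. Over all pathway lists, genes called higher fell there from 14 to 5, so these small rises depend on the processing.

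The remaining WNT receptors, 17 genes, held 5 that were lower and 3 that were higher, with a median log2 ratio of -0.07. The Frizzled genes Fzd10 (-2.30 ± 0.12), Fzd9 (-0.96 ± 0.25) and Fzd1 (-0.74 ± 0.21) fell the most. Ror1 and Adgra2, an array name for the gene also called Gpr124, were lower by -0.28 ± 0.14 and -0.23 ± 0.11. Fzd8 (0.37 ± 0.09) and Fzd6 (0.36 ± 0.11) were higher. Tspan12 was higher by 0.18 ± 0.19 (limma adjusted p = 0.0392), with -0.05 on array 3.

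**Figure D3:**
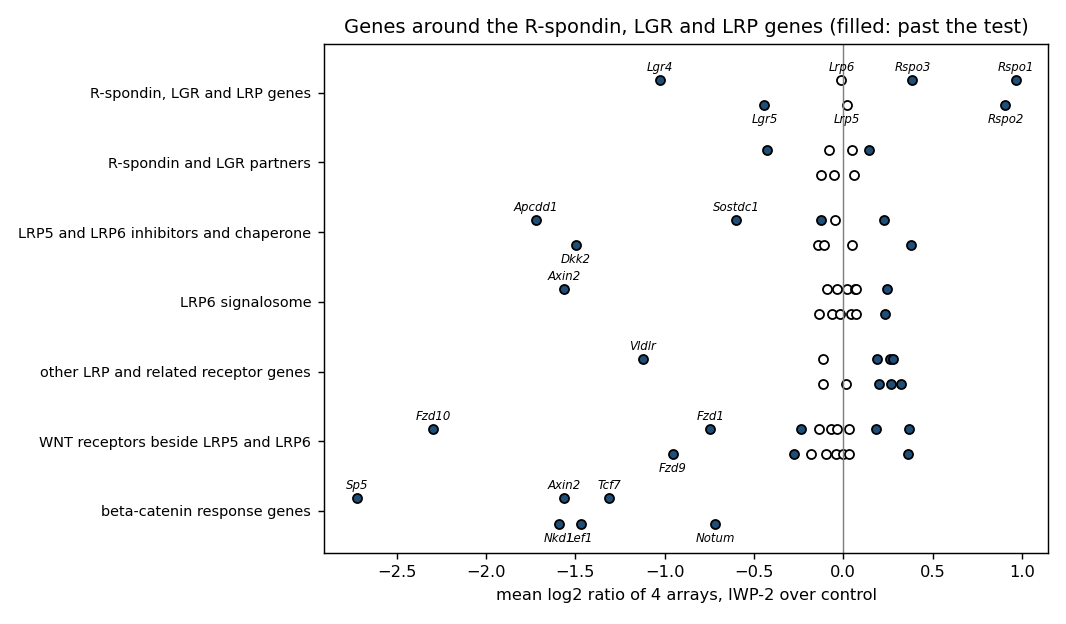
Mean log2 ratio of 4 arrays (horizontal axis) for the 7 genes tested of the R-spondin, LGR and LRP group and for the tested genes of 6 pathway lists, 1 point per gene, filled where the adjusted p passed 0.05. Height within a row only separates the points, and names are given for the top row and for genes below -0.6. Lgr4 lies at -1.03, inside the range of the beta-catenin response genes in the bottom row, as do genes of other rows, and Lgr5 lies at -0.44, outside it.

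Markers of the tissues of the explant moved on the same arrays, and their values belong beside those of the R-spondins and LGR receptors. All 7 markers of ureteric epithelium were higher, with a median log2 ratio of 0.30 and a range of 0.24 to 0.34. Their summed signal was 40882 to 54041 in the controls and 46388 to 67147 in the treated ureters. Of 6 markers of ureteric mesenchyme, Tbx18 was lower (-0.74 ± 0.26), Pdgfrb was higher (0.80 ± 0.07) and 4 did not pass, with a median of 0.02 and summed signals of 84239 to 116098 and 90734 to 118138. The rise of Rspo3 by 0.39 lay above the range of the epithelial markers. The mean rises of Rspo1 and Rspo2 were larger still, and the falls of Lgr4 and Lgr5 ran the other way.

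Of 6 nephron progenitor markers 5 were higher and 1 lower, with a median of 0.22. Six2 was higher by 1.14 ± 0.27, with log2 ratios of 0.97, 1.30, 1.44 and 0.86, and Meox1, Osr1, Eya1 and Cited1 rose by 0.16 to 0.39, while Crym was lower by -0.96 ± 0.45. Their summed signal was 11243 to 14125 in the controls and 12189 to 16070 in the treated ureters. Rspo2 and Six2 both had their highest ratios on arrays 2 and 3. So did Rspo3 and the medians of the nephron progenitor and epithelial markers, while Rspo1 and the medians of the other tissue lists did not. Genes of endothelium (4 of 6 higher, median 0.19), blood (4 of 6, 0.27), macrophages (4 of 6, 0.20) and neural crest (3 of 6, 0.26) were higher too, and none of these 4 lists had a member called lower. No marker of the 7 tissue lists was below background. The part of any tissue in the changes of Rspo1, Rspo2, Rspo3, Lgr4 and Lgr5 was not tested.

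**Figure D4:**
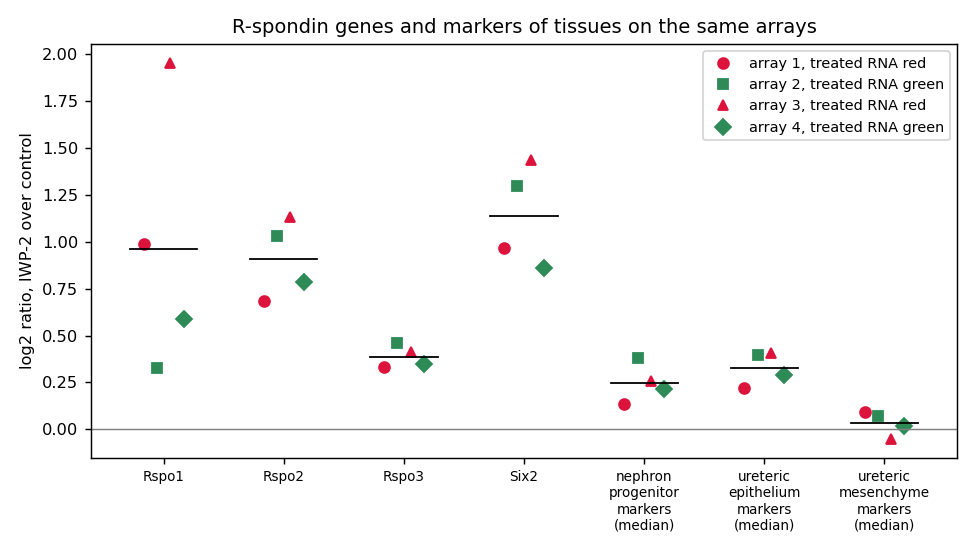
Log2 ratio of IWP-2 over control (vertical axis) on each of 4 arrays for Rspo1, Rspo2, Rspo3 and Six2, and the median over the markers of nephron progenitors (6 genes), ureteric epithelium (7) and ureteric mesenchyme (6), with lines at the mean of the 4 values. Colours give the dye of the treated RNA. The epithelial medians lie at or below Rspo3 on each array, the mesenchymal medians near 0, and the means of Rspo1 and Rspo2 above both.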

How the data were processed

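Total RNA of pooled ureters was amplified, labelled and hybridised to Agilent mouse arrays, and scanned with Agilent Feature Extraction 10.7.3.1 per the file headers. The study's methods name a 4 × 44K design, whereas each deposited file holds 174979 spots, 157716 of them for 39429 gene probes in 4 spots each. All 4 arrays lay on 1 slide with 1 scan time. The deposited files hold raw and processed intensity per spot, the log10 ratio of red over green made by the authors' scanner software, and its flags. The authors' series table holds signed fold changes, treated here as a score whose direction, treated over control, was set by its correlation with the processed ratios (r = 0.988 to 0.992). Its columns have a median log2 value of 0, and how they were scaled is not given in the sources used here.

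Raw intensities were corrected by normexp (offset 50) and normalised within arrays by loess (span 0.3) in limma 3.58.1 (R 4.3.3). Control spots had weight 0 in loess, and control spots and spots marked as outliers (3.01% to 3.38%) were left out. Spots of a probe were averaged. A gene was tested where its probe was well above background, in over 0.5 of its spots, in the control channel or the treated channel of all 4 arrays, and was represented by its brightest probe. The model held treatment and a dye term, two-sided, with Benjamini-Hochberg adjustment over 22455 genes at 0.05. Median raw intensities were 368 to 711 and local backgrounds 28 to 77, and 75.1% to 80.0% of probes were above background. The number of arrays limits the precision. The script was tested on simulated data. The labels number the arrays and the methods give separate pools of ureters, but not which array holds which pool. The p-values and intervals measure the spread between these arrays that is left after the dye term, with variances that limma shrinks towards those of all genes.

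Both channels of an array were compared directly, so arrays pair treated with control. The members, the pathway lists and the marker lists were chosen with earlier results of these data known. 1 gene of the pathway lists was left out of them and is not reported here. Named were all 9 members, Znrf3, Rnf43, the 20 pathway genes with the largest changes past the test and the 3 genes most like Lgr4, the member with the largest change past the test at the offset of 50. The smaller pathway changes and the marker genes were named after their values were seen. Alternatives covered background, normalisation, the series table, filters, probe choice, dye, pairing and single arrays.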

Additional observations from a re-analysis of the deposited data

How the results depend on the processing

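Each result was recomputed under 14 alternatives. Lgr4 (-1.08 to -0.97), Rspo2 (0.80 to 1.22) and Rspo3 (0.35 to 0.43) kept direction and call under all 14. With the fold changes tabulated by the authors, 2050 genes were lower and 1833 higher, 1 member was lower, 5 pathway genes were higher, and Rspo1 (1.07, limma adjusted p = 0.0904) and Lgr5 (-0.45, limma adjusted p = 0.0684) lost their calls. With the 8 channels as separate samples, which drops the pairing by array (no replicate block), 2069 genes were lower and 2040 higher, 5 pathway genes were higher, and Rspo1 (0.96, limma adjusted p = 0.181) lost its call. With all 4 arrays in pairs these counts were 3360, 4068 and 14. Kremen2, Lrp8, Lrp2, Sostdc1 and Fzd6 lost their calls in 1 or both of these settings. Leaving out 1 array at a time gave 2180 to 2813 lower and 2878 to 3345 higher genes, the lowest counts without array 3, with 9 (without array 1) to 13 pathway genes higher, and Rspo1 ran from 0.72 to 1.21. Lrp5 turned from 0.022 to -0.026 without array 1 and -0.0065 without array 4, and reached 0.070 without array 3. Lrp6 turned from -0.0097 to 0.0032 with processed signals, to 0.023 with the mean of its probes and to 0.019 without array 2, and stood at -0.039 without array 4. Rnf43 turned to -0.032 without array 2 and was 0.13 without array 4. The study's limits, stated for 2 arrays per stage and applied here to 4, passed 0 members, 1 (Lgr4) at a fold of 1.5, 1 (Lgr4) on arrays 1 and 2 alone and 0 on arrays 3 and 4 alone. With processed signals Rspo2 (1.22) and Rspo1 (1.07) exceeded Lgr4 (-1.01) in size. The causes were not tested. A slide block could not be fitted, since all arrays share 1 slide. Signal near background leaves Rspo4 and Lgr6 without a fold change. None of 29 genes screened had an array that stood apart from the other 3 by Dixon's criterion, where chance would give 1.45.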
